A study of Mus musculus with 12 samples.

Results

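The N-glycosylation genes are 45 genes of the pathway that builds, transfers and remodels asparagine-linked glycans. Members were chosen by name, as the rows of the deposited count table that carry their Entrez gene identifiers, and all 45 were found among the 27179 genes of the table. They fall into 6 steps, with 10 genes for the supply of donor sugars and dolichol, 6 for assembly of the lipid-linked precursor on the cytosolic face of the endoplasmic reticulum (ER), 7 for its completion in the ER lumen, 10 for the oligosaccharyltransferase that transfers it to protein, 4 for ER trimming and the folding check, and 8 for remodelling in the Golgi.

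An N-glycan is first built on the lipid dolichol, from sugars activated as nucleotide or dolichol phosphate donors, and is then moved in one piece onto asparagines of proteins that enter the ER. Glucosidases and a folding sensor next read and trim the glycan, and Golgi mannosidases and glycosyltransferases convert it to complex forms. Antibodies carry N-glycans on their heavy chains, so a B cell that becomes an antibody-secreting plasmablast sends a large load of glycoprotein through this pathway.

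RNA-seq was performed on B cells from the spleens of male C57BL/6 mice (6 to 12 weeks of age) at 6 stages, with 2 biological replicates and hence 2 libraries per stage. Naive resting B cells were sorted without treatment, while the other 5 stages were cultured with 25 μg/ml lipopolysaccharide (LPS), a bacterial cell wall component that activates B cells. Cells taken at 3, 10 and 33 h were sorted as activated and undivided by a dye that is diluted at each division, and cells of day 4, from cultures set up at a lower density, were sorted as CD138- CD22+ (expanded B cells) or CD138+ CD22- (plasmablasts). No transgene or mutation was named in the labels for any stage. Adjusted p-values below measure the spread between these libraries only, and with 2 libraries per stage the smallest two-sided p that an exact permutation test can give is 0.33, so tests rest on the model fitted across all genes. In bulk RNA, fewer cells of a type and less RNA per cell cannot be told apart.

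Each library held 23026619 to 60585587 counts. The summed level of 7 B-cell markers was 7113 to 7258 RPKM (counts scaled for exon length and library size) in naive libraries and 2072 to 2084 RPKM in plasmablasts, where 5 plasmablast markers summed to 10660 to 10820 RPKM against 141 to 148 RPKM in naive cells. Of the plasmablast sums, Jchain made up 8203 and 7770 RPKM and Xbp1 2228 and 2436 RPKM. The 5 markers summed to 606 to 767 RPKM at 3 h and 908 to 1070 RPKM in expanded B cells. Irf4 was higher at 3 h (709.5 and 519.6 RPKM) than in plasmablasts (241.2 and 289.9 RPKM), while Sdc1, Prdm1, Xbp1 and Jchain were each highest in plasmablasts. The naive libraries also held markers of other cells. The 7 myeloid markers summed to 163 to 406 RPKM and the 4 erythroid markers to 175 to 238 RPKM there, against at most 9.74 and 2.02 RPKM at every later stage, and 7 T-cell markers summed to 31.5 to 34.5 RPKM against 6.00 to 17.8 RPKM later. Lck alone made up 29.4 and 32.3 RPKM of the naive T-cell sums, and Cd3g was lower in naive cells (0.433 and 0.455 RPKM) than in plasmablasts (1.36 and 0.930 RPKM). Of the naive myeloid sums, Lyz2 made up 140.5 and 60.2 RPKM, S100a8 121.8 and 48.0 RPKM and S100a9 129.9 and 44.6 RPKM. Itgam was lower in naive cells (2.11 and 1.26 RPKM) than in expanded B cells (5.43 and 4.91 RPKM). Adgre1 was at 3.73 and 3.78 RPKM in naive cells and at 4.23 and 4.34 RPKM in expanded B cells. The part of such other cells in the naive values below was not tested.

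The pathway rose mainly at the last transition. The members took 0.377% to 0.539% of all counts in the libraries from naive to 33 h, 0.697% and 0.726% in expanded B cells, and 1.72% in each plasmablast library. Of the 45 members, 43 passed the filter on low counts and were tested. The other two, Alg13 and Magt1, lie on the X chromosome, whose genes the study removed, and were tested in a fit that kept all removed genes. Differential expression (DE) was called with glmTreat of edgeR, for changes significantly above 1.5-fold at a false discovery rate of 5%. By 3 h, 12 of 43 members had risen and 8 had fallen, where 21% of the 12767 tested genes rose and 24.3% fell. From 3 h to 10 h, 7 rose and 4 fell against 17.4% and 13.4% of tested genes. From 10 h to 33 h, 2 rose and 0 fell against 10.1% and 4.45%. At an unadjusted glmTreat p under 0.05 the falls at that transition were also 0. By DESeq2's Wald test they were 0, against 272 of the 12767 tested genes. The F-test for a change of any size called 14 falls, against 2827 of the tested genes.

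From 33 h to expanded B cells, 5 members rose and 1 fell, against 7% and 3.67% of tested genes. In plasmablasts, relative to expanded B cells, 32 of 43 rose and 0 fell, against 14% and 12.2% of tested genes, with a median log2 fold change of 1.26 over the members and -0.05 over all tested genes. The F-test called 1 fall there, against 3791 of the 12767 tested genes. Between the ends of the series, naive to plasmablasts, 36 rose and 0 fell, against 26.6% and 23.4% of tested genes, and the median was 1.91 against 0.02. The F-test again called 1 fall, against 4577 of the tested genes. DESeq2's Wald test, and glmTreat at an unadjusted p under 0.05, called 0 falls in both comparisons. The Wald test called 994 and 2375 falls over all tested genes. Over the 5 transitions, 36 of 43 members (83.7%) were DE at 1 or more, against 71.2% of all tested genes. The plasmablast mean RPKM was the highest of the 6 stages for 35 of the 43, and for 18 the naive mean was the lowest. The highest and lowest stages were not counted over all tested genes, so these counts have no background beside them.

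The balance of rises and falls among the members depended on the scaling of the libraries at the early transitions, while no called change took the other sign. TMM factors, which correct for a few genes taking a large part of a library, ran from 0.84 to 1.12. With library size alone, the members' median from naive to 3 h went from 0.09 to -0.12, and over all tested genes the median log2 fold change moved by -0.21 from naive to 3 h, 0.33 from 3 h to 10 h, -0.34 from expanded B cells to plasmablasts and -0.28 from naive to plasmablasts. The share of rises among all calls then went from 46.3% to 36.0%, from 56.5% to 77.4%, from 53.5% to 28.7% and from 53.2% to 41.4% in these comparisons. Among the members, the rises and falls became 10 and 10 from naive to 3 h and 14 and 1 from 3 h to 10 h. They became 26 and 0 from expanded B cells to plasmablasts, and 34 and 0 from naive to plasmablasts. Over all 12767 tested genes they became, in the same order, 2092 and 3724, 3434 and 1004, 1189 and 2961, and 2740 and 3886.

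**Figure D1:**
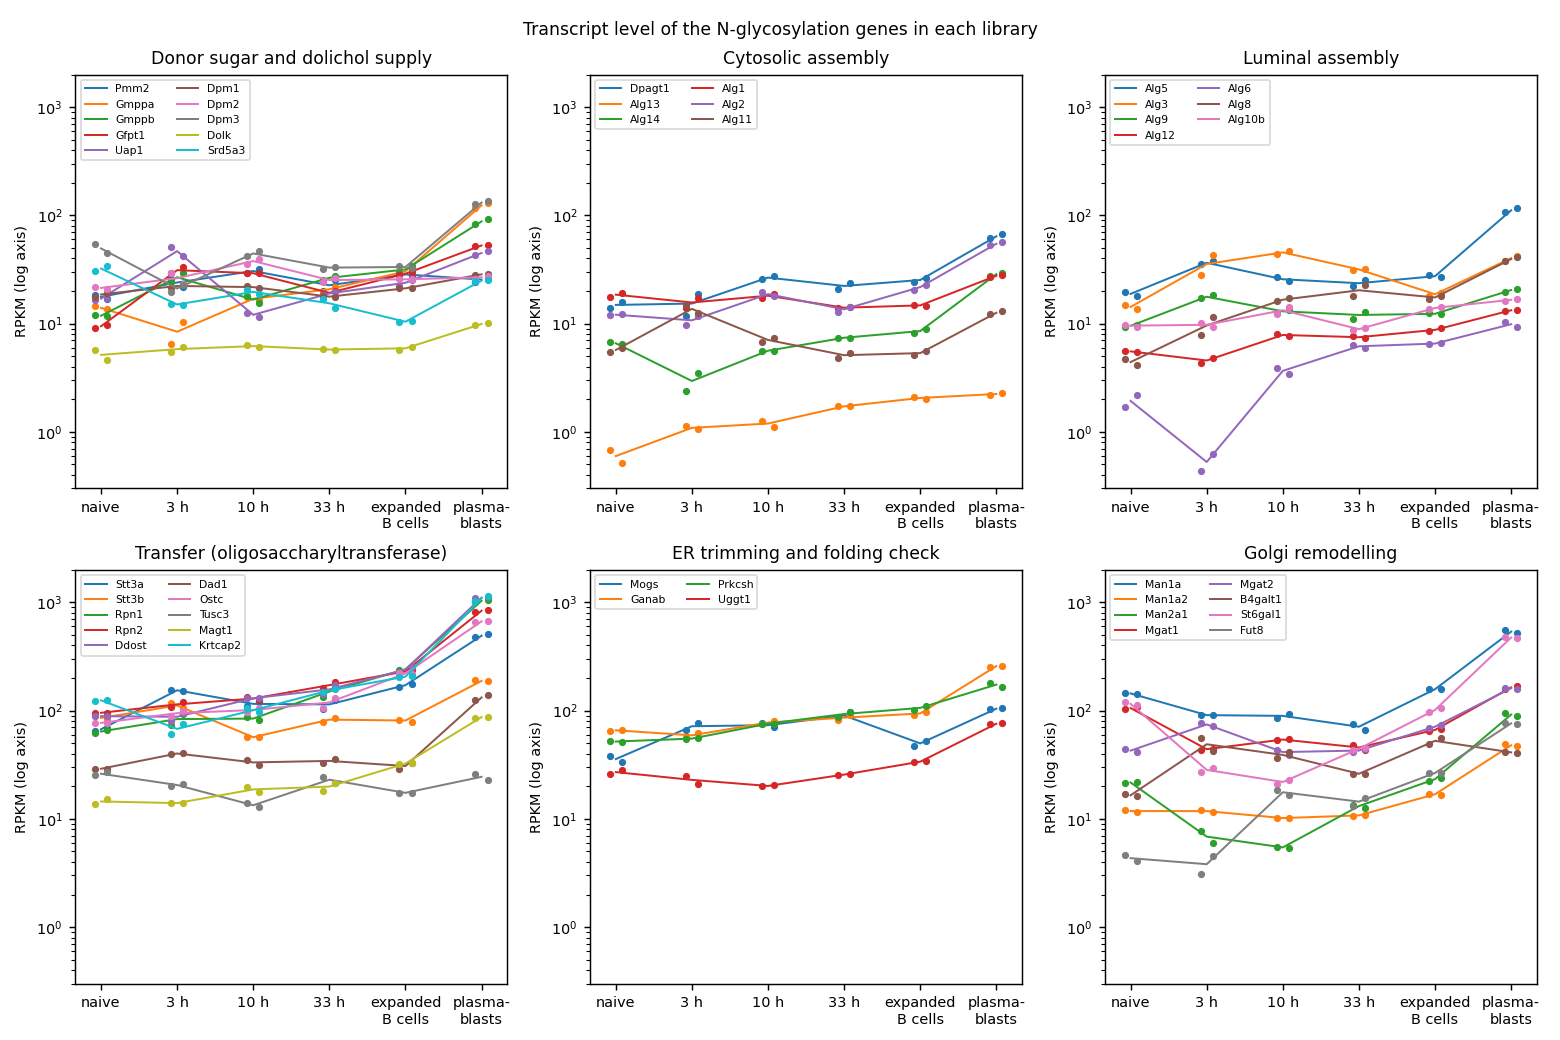
Level of each member in RPKM on a log axis, by stage, in 1 panel per pathway step; points are single libraries and lines join the means of 2 libraries. Lines cross each other from naive to 33 h and most turn up at plasmablasts, where Ddost reached 1109 RPKM, Krtcap2 1092 RPKM and Rpn1 1036 RPKM.

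Promoter sequence was examined because most members moved together at the last transition. RefSeq windows of 250 bases before to 50 after the start (GRCm38.p6) were found for 38 of the 45 members and for 27025 genes in all. The motifs searched, on both strands, are the ER stress response element (ERSE: CCAAT, 9 bases, CCACG), its second form (ERSE-II: ATTGG, 1 base, CCACG) and the unfolded protein response element (UPRE: TGACGTGG), letters that factors of the unfolded protein response are known to bind. The ERSE was found in 1 member, Alg12, and in 0.137% of all genes. Alg12 was not called from expanded B cells to plasmablasts (means of 8.75 and 13.3 RPKM). The ERSE-II was found in 1 member, Krtcap2, and in 0.0444% of all genes, and the UPRE in 0 members and in 0.714% of all genes. Both matches are printed below 5′ to 3′ on the strand of the gene, with the motif letters in capitals. Counted from the start that the window was drawn from, they lie at -220 to -202 in Alg12 and at 18 to 28 in Krtcap2, which has more than 1 window and whose annotated gene begins further upstream.

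Alg12, chr15:88819511-88819547, minus strand: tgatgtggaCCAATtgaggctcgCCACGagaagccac
Krtcap2, chr3:89246481-89246509, plus strand: gggacacggATTGGaCCACGgacggggcg

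The short letter runs of these motifs were more widespread. Within 100 bases before the start, CCAAT was present on either strand in 15 of 38 members (39.5%) and in 21.6% of all genes, and CCACG in 10 of 38 members (26.3%) and in 16.8% of all genes. In these shares and those of the full motifs, all genes are the 27025 with a window, whether or not they passed the filter on low counts. Shares over the tested genes alone were not computed. The 100 bases before the start are shown for some of the 11 members with a single window and a stretch outside the gene. Such a stretch lies outside the gene in RefSeq and outside its exons in GENCODE M21. Among the 11, the member with the largest rise from expanded B cells to plasmablasts in each step comes first (the Golgi step had none). The pair with the smallest changes among the 11, Dpm2 and Alg10b, follows. Capitals mark CCAAT and CCACG on either strand (ATTGG and CGTGG on the other).

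Uap1, chr1:170174965-170175064, minus strand: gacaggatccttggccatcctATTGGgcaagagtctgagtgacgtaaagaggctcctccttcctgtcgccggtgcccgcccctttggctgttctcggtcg
Alg1, chr16:5233521-5233620, plus strand: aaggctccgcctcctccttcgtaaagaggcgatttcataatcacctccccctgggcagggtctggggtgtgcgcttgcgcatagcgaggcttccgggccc
Alg5, chr3:54735439-54735538, plus strand: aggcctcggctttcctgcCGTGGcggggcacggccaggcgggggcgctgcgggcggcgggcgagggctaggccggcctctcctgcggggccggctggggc
Rpn1, chr6:88084373-88084472, plus strand: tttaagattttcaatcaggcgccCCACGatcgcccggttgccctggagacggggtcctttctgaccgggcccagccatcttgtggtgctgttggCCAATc
Ganab, chr19:8897957-8898056, plus strand: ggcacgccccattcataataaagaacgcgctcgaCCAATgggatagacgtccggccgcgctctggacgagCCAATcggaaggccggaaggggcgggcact
Dpm2, chr2:32570758-32570857, plus strand: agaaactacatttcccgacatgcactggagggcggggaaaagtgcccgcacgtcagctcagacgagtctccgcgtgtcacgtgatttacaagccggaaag
Alg10b, chr15:90224211-90224310, plus strand: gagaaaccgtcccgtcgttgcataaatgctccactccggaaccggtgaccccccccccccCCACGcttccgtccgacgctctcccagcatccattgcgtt

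Of the 5 members shown for their rise, Uap1 and Rpn1 held 1 CCAAT each and Ganab held 2, while Alg1 and Alg5 held 0. Alg5 and Rpn1 held 1 CCACG each. Dpm2 held neither, and Alg10b held 1 CCACG. A match is only a match of letters.

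Among the genes that supply donor sugars and dolichol, 6 of 10 rose at the last transition, expanded B cells to plasmablasts, with a median log2 fold change of 0.89. They were Gmppa, Gmppb, Gfpt1, Uap1, Dpm3 and Srd5a3. Over all tested genes, 14% rose there and the median was -0.05. Gmppa encodes a regulatory partner of GDP-mannose pyrophosphorylase and Gmppb its catalytic subunit. Gmppa was at 14.4 and 13.6 RPKM in naive B cells, 6.50 and 10.3 at 3 h and 17.5 and 16.4 at 10 h. The later libraries gave 19.8 and 21.8 at 33 h, 29.3 and 31.4 for expanded B cells and 118 and 129.7 for plasmablasts. It had the largest rise of the step at the last transition (2.03 ± 0.15, adjusted p = 1.4e-06; values after ± are SE of the log2 fold change), and both plasmablast libraries lay above all others. Gmppb was at 11.9 and 11.7 RPKM in naive B cells, 24.2 and 29.4 at 3 h and 17.8 and 15.5 at 10 h. Its level was 25.4 and 27.5 at 33 h, 29.4 and 33.8 for expanded B cells and 83.7 and 92.1 for plasmablasts. Its log2 fold change was 1.48 ± 0.12, adjusted p = 7.4e-06. At 3 h the 2 genes differed, since Gmppb had risen (1.19 ± 0.12, adjusted p = 0.00011) and the Gmppa level was lower than in naive cells without passing the test (-0.71 ± 0.16, adjusted p = 0.16). In GENCODE M21, 33.6% of the exon bases of Gmppb are shared with other genes, mainly with Rnf123 on the opposite strand, and whether the counting used strand is not given in the sources used here.

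Gfpt1 encodes the rate-limiting enzyme of hexosamine synthesis, and Uap1 makes UDP-GlcNAc, the donor of the first sugars on dolichol. Gfpt1 was at 9.09 and 9.78 RPKM in naive B cells, 29.2 and 33.1 at 3 h and 29.0 and 29.3 at 10 h. At 33 h 18.3 and 20.2 RPKM were measured, with 28.1 and 29.7 for expanded B cells and 51.7 and 53.7 for plasmablasts. It had the largest rise of the step from naive to 3 h (1.73 ± 0.090, adjusted p = 4.7e-08), the naive libraries lying below all others. Uap1 was at 16.6 and 17.4 RPKM in naive B cells, 51.3 and 42.1 at 3 h and 12.6 and 11.5 at 10 h. It then stood at 18.5 and 19.5 at 33 h, 22.5 and 25.2 for expanded B cells and 43.3 and 46.4 for plasmablasts. Its level at 3 h was matched again only in plasmablasts, with a rise from naive to 3 h (1.46 ± 0.11, adjusted p = 2.3e-06), a fall from 3 h to 10 h (-1.95 ± 0.11, adjusted p = 2.3e-07) and a rise at the last transition (0.91 ± 0.11, adjusted p = 0.0059). The last of these was not called without expanded B cells replicate 1 (0.83, adjusted p = 0.064), nor with library size alone, where the log2 fold change was 0.57 for Uap1 and 0.53 for Gfpt1.

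Dpm1, Dpm2 and Dpm3 form the synthase that loads mannose onto dolichol phosphate. Dpm3, the small subunit that tethers the catalytic Dpm1 to the membrane, was at 54.0 and 44.9 RPKM in naive B cells, 19.5 and 22.7 at 3 h and 41.9 and 47.0 at 10 h. Values of 32.2 and 33.6 at 33 h preceded 34.0 and 32.6 for expanded B cells and 127 and 135 for plasmablasts. It fell from naive to 3 h (-1.22 ± 0.13, adjusted p = 0.00012), rose from 3 h to 10 h (1.07 ± 0.13, adjusted p = 0.0016) and rose again at the last transition (1.98 ± 0.12, adjusted p = 3.1e-07). The catalytic Dpm1 stayed between 17.7 and 28.7 RPKM and Dpm2 between 20.7 and 39.9 RPKM, and neither was called at any transition. At the last transition their log2 fold changes were 0.43 ± 0.088 and 0.06 ± 0.12. In Dpm1, 12% of exon bases are shared with another gene. Pmm2, which converts mannose 6-phosphate to mannose 1-phosphate, and Dolk, the dolichol kinase, were also not called at any of the 5 transitions. Dolk was called from naive to plasmablasts (0.94 ± 0.13, adjusted p = 0.0051), but not without naive replicate 2 (0.79, adjusted p = 0.061). Srd5a3, which makes dolichol from polyprenol, fell from naive to 3 h (-1.10 ± 0.11, adjusted p = 0.00017) and rose at the last transition (1.26 ± 0.11, adjusted p = 4.6e-05), ending at 24.8 and 25.1 RPKM in plasmablasts against 30.6 and 33.9 RPKM in naive cells.

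In cytosolic assembly all 5 genes tested rose from expanded B cells to plasmablasts, with a median of 1.33. They were Dpagt1, which starts the precursor on dolichol, Alg14, which anchors the enzyme for its next sugar, and the mannosyltransferases Alg1, Alg2 and Alg11. Of all tested genes, 14% rose there, with a median of -0.05. Alg14 was at 6.72 and 6.43 RPKM in naive B cells, 2.39 and 3.50 at 3 h and 5.62 and 5.61 at 10 h. Later values were 7.36 and 7.43 at 33 h, 8.22 and 8.83 for expanded B cells and 27.7 and 29.5 for plasmablasts, and its rise at the last transition was the largest of the step (1.75 ± 0.15, adjusted p = 8.6e-06). Alg14 had fallen from naive to 3 h (-1.12 ± 0.18, adjusted p = 0.0032) and its call as risen from 3 h to 10 h (0.89 ± 0.18, adjusted p = 0.048) was lost under 8 alternatives. Without 3 h replicate 1 it was 0.68 (adjusted p = 0.31), and without either 10 h library 0.89 (adjusted p = 0.1 and 0.087). Alg13, the catalytic partner of Alg14, did not follow it, with 2.01 and 2.10 RPKM in expanded B cells and 2.18 and 2.29 RPKM in plasmablasts (0.13 ± 0.14, adjusted p = 1). Its rise from naive to 3 h (0.85 ± 0.17, adjusted p = 0.046) was not called without naive replicate 2 (0.68, adjusted p = 0.24) or without either 3 h library (0.83 and 0.90, adjusted p = 0.082 and 0.053).

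Alg11 was the cytosolic gene with an early peak. It was at 5.51 and 5.89 RPKM in naive B cells, 14.8 and 12.6 at 3 h and 6.74 and 7.37 at 10 h. The later libraries gave 4.8 and 5.40 at 33 h, 5.08 and 5.59 for expanded B cells and 12.1 and 13.0 for plasmablasts. It rose from naive to 3 h (1.26 ± 0.11, adjusted p = 2.2e-05), fell from 3 h to 10 h (-0.95 ± 0.11, adjusted p = 0.0031) and rose at the last transition (1.24 ± 0.11, adjusted p = 6.2e-05), so that its 3 h and plasmablast libraries overlapped in level. The fall was not called with library size alone (-0.62). Alg1 had the smallest rise of the step at the last transition (0.91 ± 0.11, adjusted p = 0.0066, and 0.57 with library size alone, not called), and 17.6% of its exon bases are shared, mainly with Eef2kmt on the opposite strand.

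Luminal assembly, in which mannosyltransferases and glucosyltransferases finish the precursor, had several rises already at 3 h. By 3 h 4 of 7 genes had risen and 1 had fallen, with a median of 0.89. Over all tested genes, 21% had risen and 24.3% had fallen, with a median of -0.03. At the last transition 3 of 7 rose, with a median of 0.73, against 14% and -0.05 over all tested genes. From naive to plasmablasts 7 of 7 rose, with a median of 1.5, against 26.6% and 0.02. The call of Alg10b was lost under 5 alternatives. Alg5 makes a donor, dolichol phosphate glucose, and was grouped with this step rather than with supply. It was at 19.5 and 18.2 RPKM in naive B cells, 35.4 and 37.5 at 3 h and 26.7 and 24.7 at 10 h. Its level was 22.1 and 25.1 at 33 h, 27.9 and 26.9 for expanded B cells and 107 and 116 for plasmablasts. Its rise at the last transition was the largest of the step (2.02 ± 0.097, adjusted p = 3.7e-08). Alg3, which adds the first luminal mannose, was at 15.0 and 13.5 RPKM in naive B cells, 27.9 and 43.1 at 3 h and 44.2 and 46.8 at 10 h. At 33 h 31.5 and 31.8 RPKM were measured, with 18.1 and 19.2 for expanded B cells and 38.2 and 42.2 for plasmablasts. It rose from naive to 3 h (1.32 ± 0.16, adjusted p = 0.0002), and the 3 h libraries differed from each other by more than those of other stages. The plasmablast libraries of Alg3 overlapped those of 3 h in level, and its mean was highest at 10 h (45.5 RPKM, against 40.2 in plasmablasts). Alg3 was called as risen at the last transition, but not with library size alone (0.77, adjusted p = 0.13).

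Alg6, the glucosyltransferase that adds the first glucose, was the lowest luminal gene. It was at 1.68 and 2.18 RPKM in naive B cells, 0.430 and 0.622 at 3 h and 3.91 and 3.41 at 10 h. It then stood at 6.35 and 5.98 at 33 h, 6.44 and 6.63 for expanded B cells and 10.4 and 9.31 for plasmablasts. It fell from naive to 3 h (-1.82 ± 0.21, adjusted p = 3.4e-05) and then rose from 3 h to 10 h (2.75 ± 0.20, adjusted p = 5.6e-07), the largest change of any member at a single transition. The lowest library held 24 counts of Alg6. Alg8, which adds the next glucose, rose from naive to 3 h (1.13 ± 0.17, adjusted p = 0.0025, but 0.78 and adjusted p = 0.089 without 3 h replicate 2) and at the last transition (1.18 ± 0.16, adjusted p = 0.0015, but 0.84 and adjusted p = 0.066 with library size alone). Alg10b, which adds the last glucose, was not called at any of the 5 transitions. Its call from naive to plasmablasts (0.79 ± 0.10, adjusted p = 0.016) was lost without naive replicate 2 (0.76, adjusted p = 0.066), without plasmablasts replicate 2 (0.76, adjusted p = 0.064), with no filter on low counts (0.76, adjusted p = 0.071), by DESeq2's Wald test (0.80, adjusted p = 0.12) and with library size alone (0.51, adjusted p = 0.71).

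The oligosaccharyltransferase was the step with the largest rise in plasmablasts. At the last transition 8 of 9 tested subunits rose, with a median of 1.86, against 14% and -0.05 over all tested genes. From naive to plasmablasts 8 of 9 rose, with a median of 3.12, against 26.6% and 0.02. Krtcap2, a subunit that joins the Stt3a complex to the translocon, was at 123 and 127 RPKM in naive B cells, 60.7 and 74.9 at 3 h and 105 and 96.9 at 10 h. Values of 148 and 160.1 at 33 h preceded 205 and 207 for expanded B cells and 1029 and 1156 for plasmablasts. It fell from naive to 3 h (-0.87 ± 0.11, adjusted p = 0.0061), a call lost without 3 h replicate 1 (-0.73, adjusted p = 0.057), and had the largest rise of all members at the last transition (2.41 ± 0.10, adjusted p = 1.2e-08). In Krtcap2, 15.7% of exon bases are shared, mainly with Trim46 on the opposite strand. Ostc, the other subunit particular to the Stt3a complex, was at 77.0 and 77.2 RPKM in naive B cells, 89.8 and 99.7 at 3 h and 97.8 and 105 at 10 h. Later values were 106 and 132 at 33 h, 225 and 216 for expanded B cells and 662 and 676 for plasmablasts. Its rise from 33 h to expanded B cells (0.89 ± 0.10, adjusted p = 0.013) was the only call of the step at that transition and was lost without 33 h replicate 1 (0.74, adjusted p = 0.17) and without expanded B cells replicate 1 (0.86, adjusted p = 0.081). Its later rise was larger (1.6 ± 0.10, adjusted p = 8.0e-07).

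The shared subunits Rpn1, Rpn2, Ddost and Dad1 also rose at the last transition. Rpn1 (chromosome 6, 88084473 to 88105304, GRCm38.p6), a ribophorin, was at 61.6 and 66.8 RPKM in naive B cells, 73.9 and 93.2 at 3 h and 87.4 and 81.5 at 10 h. The later libraries gave 134 and 166 at 33 h, 237 and 246 for expanded B cells and 1013 and 1060 for plasmablasts. The plasmablast libraries lay far above the rest, with a rise at the last transition (2.10 ± 0.12, adjusted p = 1.2e-07) and from naive to plasmablasts (4.01 ± 0.12, adjusted p = 7.5e-11). From 10 h to 33 h Rpn1 did not pass the test (0.83 ± 0.12, adjusted p = 0.05), though it did with DESeq2's size factors (0.86, adjusted p = 0.032) and without 33 h replicate 1 (0.97, adjusted p = 0.0094). Ddost, the subunit also known as OST48, was at 88.7 and 89.0 RPKM in naive B cells, 80.4 and 95.1 at 3 h and 130.3 and 130.1 at 10 h. Its level was 144 and 171 at 33 h, 227 and 252 for expanded B cells and 1102 and 1115 for plasmablasts, with a rise at the last transition (2.21 ± 0.10, adjusted p = 2.1e-08). Rpn2 and Dad1 rose at the last transition by 1.86 and 2.11 on the log2 scale. Dad1 reached 126 to 138 RPKM in plasmablasts and lay between 28.8 and 41.0 RPKM in the other 10 libraries.

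Stt3a and Stt3b are the alternative catalytic subunits, Stt3a acting as proteins enter the ER and Stt3b also afterwards. Stt3a was at 65.5 and 69.1 RPKM in naive B cells, 156 and 152 at 3 h and 111 and 120.2 at 10 h. At 33 h 104 and 124 RPKM were measured, with 166 and 178 for expanded B cells and 476 and 509 for plasmablasts. Stt3b was at 88.3 and 83.1 RPKM in naive B cells, 117 and 106 at 3 h and 57.0 and 56.6 at 10 h. It then stood at 78.9 and 86.3 at 33 h, 82.8 and 79.4 for expanded B cells and 191 and 186 for plasmablasts. Stt3a rose from naive to 3 h (1.2 ± 0.094, adjusted p = 1.0e-05) while Stt3b did not pass the test (0.38 ± 0.081, adjusted p = 1), Stt3b fell from 3 h to 10 h (-0.97 ± 0.081, adjusted p = 0.00028, and -0.64 with library size alone, not called), and both rose at the last transition (1.52 ± 0.093, adjusted p = 7.6e-07 for Stt3a and 1.22 ± 0.081, adjusted p = 5.4e-06 for Stt3b). Per exon length, Stt3a was 44.0% ± 1.99 (SD, n = 2) of the pair in naive cells, 58.1% ± 1.35 at 3 h and 67.0% ± 1.38 at 10 h. The share was 58.0% ± 1.5 at 33 h, 67.9% ± 1.73 for expanded B cells and 72.3% ± 1.29 for plasmablasts. All 10 libraries after LPS lay above the naive ones, and the 10 h and expanded libraries overlapped.

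Tusc3 and Magt1 are the alternative oxidoreductase subunits of the Stt3b complex. Tusc3 was at 25.3 and 26.9 RPKM in naive B cells, 20.1 and 21.0 at 3 h and 13.9 and 12.8 at 10 h. Values of 24.5 and 21.6 at 33 h preceded 17.4 and 17.5 for expanded B cells and 25.9 and 23.0 for plasmablasts. It was not called at any transition, and its naive and plasmablast libraries overlapped (-0.09 ± 0.10, adjusted p = 1). Magt1 was at 13.8 and 15.1 RPKM in naive B cells, 13.9 and 14.1 at 3 h and 19.5 and 17.9 at 10 h. Later values were 18.2 and 21.5 at 33 h, 32.3 and 32.6 for expanded B cells and 86.4 and 87.9 for plasmablasts, and in the fit that kept X-linked genes it rose at the last transition (1.44 ± 0.092, adjusted p = 1.2e-06). Magt1 was 35.7% ± 0.488 (SD, n = 2) of the pair per exon length in naive cells, 40.5% ± 0.573 at 3 h and 58.3% ± 0.156 at 10 h. Its share was 46.3% ± 5.17 at 33 h, 65.1% ± 0.0707 for expanded B cells and 78.1% ± 1.63 for plasmablasts. The share was thus higher in plasmablasts than in any other library, and it was not monotonic in time.

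**Figure D2:**
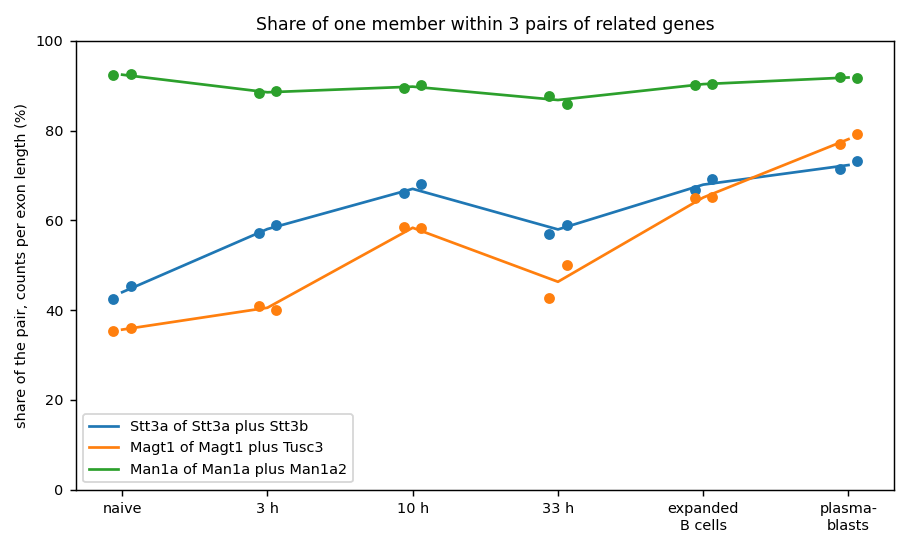
Share of one gene in 3 pairs of related genes, in percent of the pair's counts per exon length, by stage; points are single libraries and lines join means of 2 libraries. Stt3a went from 44.0% to 72.3% and Magt1 from 35.7% to 78.1% between naive cells and plasmablasts, both with a lower value at 33 h than at 10 h, while Man1a stayed between 86.0% and 92.6%.

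In ER trimming and the folding check 3 of 4 genes rose from expanded B cells to plasmablasts, with a median of 1.12. From naive to plasmablasts 4 of 4 rose. The shares of all tested genes that rose were 14% and 26.6%, and the median at the last transition was -0.05. Mogs, glucosidase I, was at 37.9 and 33.4 RPKM in naive B cells, 66.3 and 77.2 at 3 h and 76.6 and 70.1 at 10 h. The later libraries gave 83.1 and 97.1 at 33 h, 47.3 and 52.3 for expanded B cells and 103 and 105 for plasmablasts. It rose from naive to 3 h (1.01 ± 0.11, adjusted p = 0.00065) and was the only member called as fallen from 33 h to expanded B cells (-0.86 ± 0.11, adjusted p = 0.032). This fall was lost under 5 alternatives, among them without 33 h replicate 2 (-0.74, adjusted p = 0.21) and without expanded B cells replicate 1 (-0.79, adjusted p = 0.2). Mogs then rose at the last transition (1.07 ± 0.11, adjusted p = 0.00049), which was not called with library size alone (0.73, adjusted p = 0.1).

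Ganab, the catalytic subunit of glucosidase II, was at 64.8 and 66.8 RPKM in naive B cells, 56.6 and 61.7 at 3 h and 75.5 and 79.9 at 10 h. Its level was 81.3 and 91.0 at 33 h, 91.4 and 97.0 for expanded B cells and 255 and 261 for plasmablasts, with the largest rise of the step (1.45 ± 0.083, adjusted p = 4.6e-07). Its partner Prkcsh, the beta subunit, went from 102 and 110.0 RPKM in expanded B cells to 182 and 166 RPKM in plasmablasts without passing the test (0.72 ± 0.084, adjusted p = 0.078), and was called from naive to plasmablasts (1.75 ± 0.085, adjusted p = 1.2e-08). Prkcsh passed at the last transition with DESeq2's size factors (0.75, adjusted p = 0.047) and without plasmablasts replicate 2 (0.80, adjusted p = 0.043). Uggt1, the folding sensor that puts glucose back on unfolded glycoproteins, rose at the last transition (1.17 ± 0.089, adjusted p = 2.4e-05).

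Of the 8 Golgi enzymes, 7 rose at the last transition, against 14% of all tested genes, with a median of 1.51, and B4galt1 did not. By 3 h 3 had fallen and 2 had risen, with a median of -0.42, where 24.3% of all tested genes fell and 21% rose, so that the counts are near the background. From 33 h to expanded B cells 4 of 8 rose, against 7% of all tested genes. The median of the step was 0.85 against -0.02 over all tested genes, and these 4 were most of the 5 members that rose there.

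St6gal1 (chromosome 16, 23224729 to 23360350, GRCm38.p6) adds the terminal alpha-2,6 sialic acid that CD22 binds. It was at 119 and 112 RPKM in naive B cells, 27.1 and 29.6 at 3 h and 20.9 and 22.9 at 10 h. At 33 h 43.6 and 45.2 RPKM were measured, with 97.9 and 105 for expanded B cells and 475 and 473 for plasmablasts. It had the largest fall of all members from naive to 3 h (-2.03 ± 0.082, adjusted p = 3.0e-09), then rose from 10 h to 33 h (1.02 ± 0.082, adjusted p = 0.00025), to expanded B cells (1.19 ± 0.082, adjusted p = 2.9e-05) and to plasmablasts (2.22 ± 0.081, adjusted p = 3.8e-09). The expanded libraries lay below the naive ones, and the plasmablast libraries above all others. Man2a1, the mannosidase that trims the glycan to its complex core, was at 21.3 and 22.1 RPKM in naive B cells, 7.73 and 5.98 at 3 h and 5.55 and 5.34 at 10 h. It then stood at 13.6 and 12.7 at 33 h, 22.5 and 24.0 for expanded B cells and 94.7 and 89.4 for plasmablasts. Its course was alike, with a fall from naive to 3 h (-1.67 ± 0.11, adjusted p = 3.8e-07), the largest rise of the step from 10 h to 33 h (1.27 ± 0.11, adjusted p = 5.5e-05) and a rise at the last transition (1.98 ± 0.10, adjusted p = 9.0e-08). The rise from 33 h to expanded B cells (0.83 ± 0.11, adjusted p = 0.047) was lost without any one of the 4 libraries (0.78 to 0.87, adjusted p = 0.078 to 0.23).

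Mgat1, which adds the GlcNAc that starts complex glycans, also fell from naive to 3 h (-1.26 ± 0.079, adjusted p = 9.2e-07) and rose at the last transition (1.31 ± 0.079, adjusted p = 1.3e-06). Mgat2, which adds the GlcNAc of the other arm, went the opposite way early. It was at 44.3 and 41.1 RPKM in naive B cells, 76.3 and 72.8 at 3 h and 43.6 and 39.2 at 10 h. Values of 41.5 and 44.1 at 33 h preceded 68.8 and 73.4 for expanded B cells and 163 and 159 for plasmablasts. Its rise from naive to 3 h (0.80 ± 0.086, adjusted p = 0.0077) was not called without naive replicate 2 (0.75, adjusted p = 0.054), by DESeq2 (0.79, adjusted p = 0.073) or with library size alone (0.59), and its fall from 3 h to 10 h (-0.85 ± 0.085, adjusted p = 0.0046) was not called with library size alone (-0.52). It rose at the last transition (1.18 ± 0.085, adjusted p = 1.3e-05).

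B4galt1, the main galactosyltransferase, stood apart from the rest of the step in plasmablasts. It was at 16.8 and 16.2 RPKM in naive B cells, 55.8 and 42.0 at 3 h and 36.8 and 41.2 at 10 h. Later values were 26.1 and 26.1 at 33 h, 49.0 and 56.2 for expanded B cells and 41.4 and 40.9 for plasmablasts. It rose from naive to 3 h (1.57 ± 0.12, adjusted p = 2.2e-06) and from 33 h to expanded B cells (1.01 ± 0.12, adjusted p = 0.0054; 0.91 and adjusted p = 0.072 without expanded B cells replicate 2), and it was the Golgi member that did not rise at the last transition (-0.35 ± 0.12, adjusted p = 1). Both plasmablast libraries lay below both expanded libraries. Fut8, which adds the core fucose, was at 4.59 and 4.08 RPKM in naive B cells, 3.10 and 4.53 at 3 h and 18.5 and 16.7 at 10 h. The later libraries gave 13.1 and 15.7 at 33 h, 26.8 and 26.3 for expanded B cells and 77.1 and 75.5 for plasmablasts. It rose from 3 h to 10 h (2.19 ± 0.15, adjusted p = 6.7e-07) and at the last transition (1.52 ± 0.14, adjusted p = 2.0e-05), and its change from naive to plasmablasts was the largest of all members (4.14 ± 0.14, adjusted p = 2.0e-10). From 33 h to expanded B cells it did not pass (0.88 ± 0.14, adjusted p = 0.058), though it did with DESeq2's size factors (0.90, adjusted p = 0.043) and without 33 h replicate 2 (1.02, adjusted p = 0.028).

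Man1a and Man1a2 encode the Golgi mannosidases that trim high-mannose glycans. Man1a was at 145 and 143 RPKM in naive B cells, 91.0 and 90.8 at 3 h and 86.2 and 92.7 at 10 h. Its level was 75.6 and 66.5 at 33 h, 157 and 159 for expanded B cells and 553 and 522 for plasmablasts. Man1a2 was at 12.1 and 11.5 RPKM in naive B cells, 12.0 and 11.6 at 3 h and 10.2 and 10.2 at 10 h. At 33 h 10.7 and 10.9 RPKM were measured, with 17.1 and 16.7 for expanded B cells and 49.0 and 46.8 for plasmablasts. Man1a rose from 33 h to expanded B cells (1.15 ± 0.081, adjusted p = 4.7e-05), and both rose at the last transition (1.77 ± 0.081, adjusted p = 3.7e-08 and 1.5 ± 0.076, adjusted p = 1.5e-07). Man1a was 92.4% ± 0.191 (SD, n = 2) of the pair per exon length in naive cells, 86.8% ± 1.17 at 33 h and 91.8% ± 0.0495 in plasmablasts.

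Set side by side at the last transition, the median log2 fold change was 1.01 over the 22 tested genes of the lipid-linked precursor (supply and both assembly steps, 14 of which rose), 1.86 over transfer, 1.12 over ER trimming and 1.51 over the Golgi step. From naive to 3 h the medians were 0.22 for the precursor (8 rose and 4 fell), 0.30 for transfer (1 rose and 1 fell) and -0.42 for the Golgi step (2 rose and 3 fell), and from 33 h to expanded B cells they were 0.19 (0 and 0), 0.42 (1 and 0) and 0.85 (4 and 0). From naive to plasmablasts they were 1.4 (17 of 22 rose), 3.12 (8 of 9) and 1.97 (7 of 8, all but Mgat1). Over all tested genes, 14% rose at the last transition (median -0.05) and 26.6% from naive to plasmablasts (median 0.02). From naive to 3 h 21% of them rose and 24.3% fell (median -0.03). From 33 h to expanded B cells 7% rose and 3.67% fell (median -0.02). The difference between steps was not tested, as the genes of a step are not replicates.

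**Figure D3:**
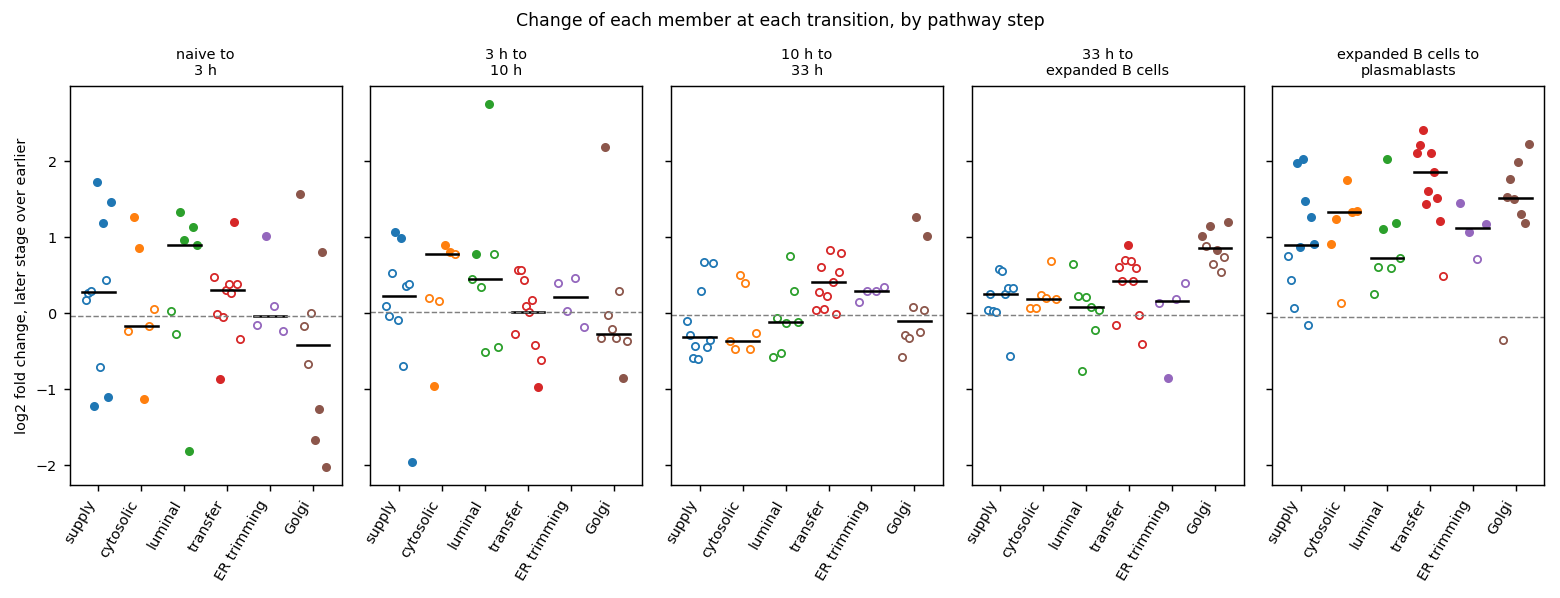
Log2 fold change of each member (points; filled where DE) at the 5 consecutive transitions, by pathway step, with the median of the tested members of the step (black bars) and of all tested genes (dashed line). At the last transition all 6 bars lie above the dashed line, from 0.73 for luminal assembly to 1.86 for transfer, while from naive to 3 h the bar of the Golgi step lies at -0.42 and that of luminal assembly at 0.89.

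**Figure D4:**
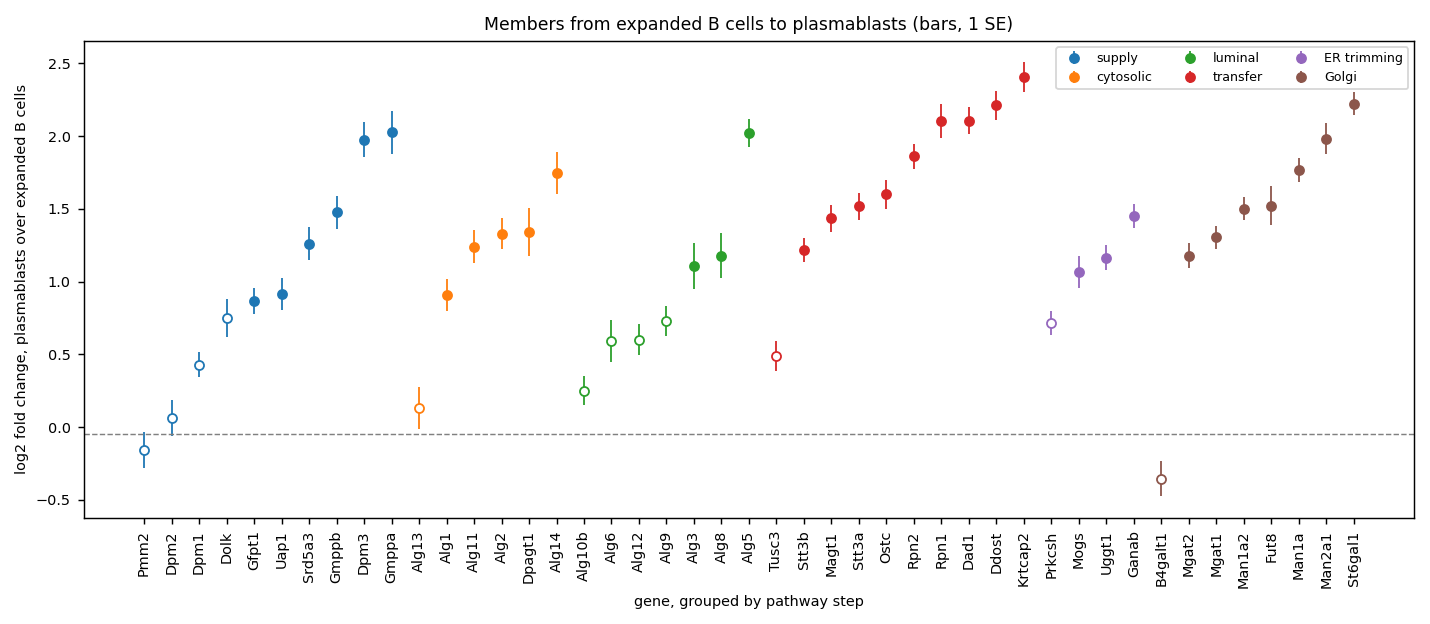
Log2 fold change from expanded B cells to plasmablasts of all 45 members, grouped by step, with bars of 1 SE from the fit and filled points for DE genes; the dashed line is the median of all tested genes (-0.05). Krtcap2 is highest at 2.41, and the lowest points are B4galt1 at -0.35 and Pmm2 at -0.16, neither of them DE.

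The 7 tested members that were DE at none of the 5 transitions were Pmm2, Dpm1, Dpm2, Dolk, Alg10b, Tusc3 and Prkcsh, 4 of them from the supply step. Of these, Dolk, Alg10b and Prkcsh were called from naive to plasmablasts, but Dolk and Alg10b not without naive replicate 2. A miss of the test does not show that these genes were level, since the test asks for more than a 1.5-fold change.

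A further 55 genes that are not members, from N-glycan metabolism and related enzyme families, were counted in the same fit, and 51 were tested. By 3 h 6 had risen and 12 had fallen, against 21% and 24.3% of all tested genes. At the next transition 11 rose and 3 fell, against 17.4% and 13.4%. At 33 h 6 had risen and 1 had fallen since 10 h, against 10.1% and 4.45%, and to expanded B cells 5 rose and 3 fell, against 7% and 3.67%. Between expanded B cells and plasmablasts 23 rose and 2 fell, against 14% and 12.2%, and from naive to plasmablasts 32 rose and 4 fell, against 26.6% and 23.4%. The largest rise at the last transition was that of Edem2 (log2 fold change 2.98), which trims mannose in ER-associated degradation, and the largest fall that of B4galt5 (-3.40), which makes lactosylceramide. B4galt5 had risen from naive to 3 h (1.37) and fell from 3 h to 10 h (-1.75), from 33 h to expanded B cells (-1.28) and from naive to plasmablasts (-4.98).

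Among them, the largest fitted rise from naive to 3 h was that of B4galt2, which was listed at 0 in both naive libraries and at 0.0221 and 0.0651 RPKM at 3 h, so no fold is given. The next was Nus1 (1.79), a subunit of the enzyme that makes the dolichol chain, and the largest fall was that of Uggt2 (-2.47), which was at 0.218 and 0.238 RPKM in naive cells. From 3 h to 10 h they were Fcsk (1.60), a fucose kinase, and the Golgi mannosidase Man1c1 (-2.02), from 10 h to 33 h Man1c1 (2.23) and Mcfd2 (-0.96), and from 33 h to expanded B cells Edem3 (1.8) and B4galt4 (-2.80). Levels of Man1c1 and B4galt4 were low, Man1c1 at 0.0353 and 0.0337 RPKM at 10 h and B4galt4 at 0.998 and 0.918 RPKM at 33 h. From naive to plasmablasts B4galt2 again had the largest fitted rise, from 0 to 0.0335 and 0.140 RPKM, and the next was Edem1 (4.98).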

How the data were processed

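RNA-seq of 12 libraries (6 stages, 2 replicates each) was analysed. The authors sequenced TruSeq libraries of polyA RNA as 81 bp paired-end reads, aligned them to mm10 with Rsubread and used featureCounts, with the Entrez annotation built into that package, to count reads per gene. They deposited raw counts, with no normalization or filter, beside the exon length of each gene. Per the labels, CASAVA 1.8.2 was also used.

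Identifiers were matched to RefSeq (25275 of 27179). Following the study's methods, unmatched genes (1904), mitochondrial (15), ribosomal RNA (33) and X or Y (1279) genes and variable immunoglobulin segments (227) were removed. The remaining 23721 genes held 84.1% to 90.6% of each library's counts, and 12767 of them passed filterByExpr. In R 4.3.3, edgeR 4.0.16 was used with TMM, all 12 libraries in a one-way layout, robust quasi-likelihood dispersions by the method of earlier versions, and glmTreat against a fold change of 1.5 with the Benjamini-Hochberg method at 0.05. The fit that keeps all removed genes tested 13854. RPKM were computed from counts, TMM-scaled library sizes and deposited lengths. The SE of a log2 fold change comes from the fit. The fits were tested on simulated data.

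Depth was 23026619 to 60585587 counts per library. Within every stage the replicates differed by more than sampling noise. Values in every library are given for the DE member with the largest rise and the largest fall in each step and transition and for 4 pairs (Stt3a and Stt3b, Tusc3 and Magt1, Man1a and Man1a2, Gmppa and Gmppb). Rpn1, Ddost and other members with values were named after their values were seen. Members, steps and gene lists were chosen with earlier results of these data known. Alternatives were other scalings, tests, filters and dispersions, a replicate block, the 4 libraries compared alone, keeping the removed genes, and leaving out each library, with DESeq2 1.42.0 as another test. Promoter sequences are from RefSeq. Protein sequences and the Hi-C data of the study were not analysed here.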

Additional observations from a re-analysis of the deposited data

How the results depend on the processing

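No member change called in the report reversed under any alternative. From expanded B cells to plasmablasts 27 of 33 calls held under every alternative and 32 of 33 under all but library size alone, and from naive to plasmablasts 36 of 38 held under all. Of the other calls, 16 of 21 held under all alternatives from naive to 3 h, 4 of 11 from 3 h to 10 h, 2 of 2 from 10 h to 33 h and 2 of 6 from 33 h to expanded B cells. These counts include the X-linked members. Among 159 changes that were not called, 31 took another sign under some alternative. Alg6 had 24 and 59 counts at 3 h, and 2 libraries per stage limit every comparison. Whether libraries with the same replicate number share a mouse or a day is not stated in the sources used here. Over 15 pairs of stages the correlation of replicate differences ran from -0.14 to 0.084. Such values cannot show that the libraries were unpaired. With the replicate block the members that rose were 12, 6, 3, 5 and 32 at the 5 transitions and 36 from naive to plasmablasts. Those that fell were 8, 4, 0, 1 and 0, and 0. Over all 12767 tested genes, in the same order, 2665, 2208, 1284, 878, 1764 and 3390 rose. Those that fell were 3094, 1697, 571, 464, 1552 and 2977. Of 270 mean levels, 46 moved by 1 SD or more with DESeq2's size factors and 194 with library size alone.

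Counts of members moved as follows, and the cause was not tested. From naive to 3 h the F-test for any size of change called 19 rises and 13 falls, against 4423 and 4640 of the 12767 tested genes. From 3 h to 10 h the rises were 4 with DESeq2's size factors, 14 with library size alone, 18 by the F-test, 3 by DESeq2's Wald test, 3 with only the 4 libraries compared, and 3 to 9 leaving out a library (3 without 3 h replicate 1 and 3 without 10 h replicate 1). The falls there were 1 with library size alone and 14 by the F-test, against 1004 and 3854 of the 12767 tested genes. Over all tested genes the rises there were 1998 with DESeq2's size factors, 3434 with library size alone and 4099 by the F-test. They were 1392 by DESeq2's Wald test and 1786 with only the 4 libraries compared. From 10 h to 33 h there were 4 rises with DESeq2's size factors, against 1341 of the 12767 tested genes. By the F-test there were 14 rises and 14 falls, against 2969 and 2827. From 33 h to expanded B cells the rises were 22 by the F-test and 3 by the Wald test. They also became fewer without 33 h replicate 1 and without either expanded library. The falls there were 4 by the F-test, 0 with at least 10 counts in every library, 0 by the Wald test and 0 with only the 4 libraries. The fall of Mogs called there was also lost without 33 h replicate 2 and without expanded B cells replicate 1. Over all 12767 tested genes, from 33 h to expanded B cells, the F-test called 2358 rises and 2721 falls and the Wald test 613 and 295. With only the 4 libraries 451 genes fell, and with at least 10 counts in every library 286 of 9977. The F-test called 1 fall from expanded B cells to plasmablasts and 1 from naive to plasmablasts, against 3791 and 4577 of the 12767 tested genes.

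Medians of log2 fold changes moved mostly with library size alone. From naive to 3 h they became -0.12 over all members, 0.066 for supply, -0.37 for cytosolic and 0.68 for luminal assembly, 0.089 for transfer, -0.24 for ER trimming and -0.63 for the Golgi step. From expanded B cells to plasmablasts they became 0.92, 0.55, 0.99, 0.39, 1.52, 0.78 and 1.17 in the same order, and from naive to plasmablasts 1.63, 0.89, 1.82, 1.21, 2.83, 1.36 and 1.68. The Golgi median from naive to 3 h was -0.49 with at least 10 counts in every library, and that from naive to plasmablasts 1.92 with only the 4 libraries. Keeping the removed genes, which adds Magt1, gave transfer medians of 1.74 and 2.98 in the last and the end-to-end comparison.

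Leaving out 1 library at a time moved the naive to 3 h medians over -0.38 to -0.0413 for cytosolic assembly, 0.78 to 0.94 for luminal assembly, 0.17 to 0.32 for transfer and -0.61 to -0.35 for the Golgi step, the lowest of each without 3 h replicate 2 and the highest without 3 h replicate 1. The Golgi median then ran over 1.5 to 1.56 from expanded B cells to plasmablasts and 1.93 to 2.01 from naive to plasmablasts, and that of supply over 1.04 to 1.25 in the latter.

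Shares of a pair taken from counts without exon length were higher for Magt1, at 61.4%, 66.2%, 80.1%, 71.1%, 84.3% and 91.1% from naive to plasmablasts. They were lower for Stt3a, at 33.4%, 46.9%, 56.5%, 46.9%, 57.5% and 62.5%, and lower for Man1a, at 85.7% in naive cells, 76.3% at 33 h and 84.6% in plasmablasts, since exon lengths differ within each pair.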
